A study of Mus musculus with 2 samples.

Results

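Droplets that held transcripts of Kupffer cells and of liver endothelial cells together were taken from 2 single-cell libraries of mouse liver. A barcode was a member when it had at least 1000 UMIs (unique molecular identifiers, each standing for 1 captured transcript), 400 or more detected genes and no more than 30% mitochondrial UMIs, and when it passed 2 sums. The Kupffer sum asked for at least 4 UMIs of Clec4f, Vsig4, Cd5l, C1qa, C1qb and C1qc together, and the endothelial sum for at least 3 UMIs of Stab2, Ptprb, Btnl9, Ldb2 and Kdr together. Of the 42372 barcodes kept by the depth and mitochondrial limits, 1811 passed both sums, 803 of 20158 in WT and 1008 of 22214 in N-LKO. These droplets are called double-positive below.

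The WT library came from control liver (genotype label CTRL). The N-LKO library came from liver plus tumor of mice in which albumin-Cre, active in hepatocytes, had removed Nus1, the gene for NgBR, which is a subunit of the enzyme that makes the glycosylation lipid dolichol. Mice of both groups were male with a C57BL6 background and were on their diet for 16 weeks. The titles name a high-fat diet and the treatment labels a Western diet, and the study names the latter for its single-cell work. Hepatocytes and nonparenchymal cells were mixed at set ratios before loading, with tumor cells added for N-LKO only, so genotype, tumor tissue and library differed together and cannot be told apart. Each group had 1 library, no difference has a replicate check, and every interval given is at 95% and covers counting error only. Nus1 was at 85.5 CPM (the UMIs of a gene scaled to the same total in each set) in WT double-positive droplets (137 UMIs), against 98.7 in N-LKO (207 UMIs), with an interval of the log2 ratio from -0.11 to 0.53. The deletion is confined to hepatocytes by its promoter, so these droplets do not check the label.

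Kupffer cells are the resident macrophages of the liver. They lie inside the sinusoids, the capillaries of the liver, attached to the sinusoidal endothelial cells and close to the stellate cells beneath them, which store vitamin A and make matrix. A droplet can hold transcripts of several cell types when cells stay attached during collagenase digestion, when separate cells enter the same droplet, or when free RNA is captured beside a cell.

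The members were chosen by the rule genes, so the levels of those genes are a description. Cd5l, a secreted scavenger receptor protein of Kupffer cells, stood at 2394 CPM in WT double-positive droplets, against 2157 in N-LKO. Clec4f, a Kupffer cell lectin, was at 958.4 and 680.8 CPM. Among the endothelial rule genes, Ptprb, a phosphatase that acts on the Tie2 receptor, was at 1312 and 950.2 CPM, and Stab2, the hyaluronan scavenger receptor of sinusoidal endothelium, was at 927.1 and 805.3 CPM. Kdr, a VEGF receptor, was at 590.0 and 266.5 CPM, the one rule gene that differed more than 2-fold. The median member had a Kupffer sum of 12 UMIs and an endothelial sum of 6 in WT, and of 11 and 5 in N-LKO.

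The rule genes themselves cannot check the label, and their shares are given as a description. All of Clec4f, Cd5l, Stab2 and Ptprb had a UMI in 45.0% of WT double-positive droplets and in 28.2% of N-LKO ones. A UMI of Clec4f, Vsig4 or Cd5l, which mark Kupffer cells among macrophages, was present in 97.3% of WT double-positive droplets (95.9 to 98.3) and in 87.9% of N-LKO ones (85.7 to 89.8). The other 22 WT members (2.74%) and 122 N-LKO members (12.1%) reached the Kupffer sum through C1q genes alone, which other macrophages also express. Stab2 or Ptprb was present in 98.5% and 97.8%. Among genes outside the rule, the 20 Kupffer identity genes summed to 7542 CPM in WT members against 761.5 in endothelial-only droplets (endothelial sum of at least 3, no Kupffer rule UMI), and to 5470 against 834.5 in N-LKO. The 24 sinusoidal endothelial genes summed to 6920 CPM in WT members against 1330 in Kupffer-only droplets (Kupffer sum of at least 4, no endothelial rule UMI), and to 4707 against 1279 in N-LKO. Just inside the rule stood 57 WT and 128 N-LKO droplets with a Kupffer sum of 4, and just outside it 83 and 225 droplets with a Kupffer sum of 3 and a passing endothelial sum. At the endothelial edge, 143 WT and 292 N-LKO members had a sum of 3, and 177 and 486 droplets with a passing Kupffer sum had a sum of 2. The rule thus divided a continuous range of counts.

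Double-positive droplets made up 25.4% of the WT droplets that passed the Kupffer sum (803 of 3167, 23.8 to 26.9) and 16.1% of the N-LKO ones (1008 of 6256, 15.2 to 17.0). These shares were set beside droplets that should lack endothelial transcripts. Among droplets with at least 3 UMIs of T and natural killer cell genes, 17.1% (15.0 to 19.4) passed the endothelial sum in WT and 19.6% (17.8 to 21.4) in N-LKO. Median depth was 1519 and 1650 UMIs in the Kupffer droplets and 1287.5 and 1519 UMIs in the lymphocyte droplets. The WT Kupffer share therefore lay above the lymphocyte share, whereas the N-LKO Kupffer share lay below it, so that against lymphocyte droplets it does not stand above background. Other classes gave other shares. Neutrophil droplets passed the endothelial sum in 28.5% of 158 cases in WT (21.6 to 36.2) and 23.5% of 960 in N-LKO, and cholangiocyte droplets in 15.1% (11.3 to 19.7) and 11.7% (9.81 to 13.7). The WT Kupffer share thus lay inside the neutrophil interval and above the lymphocyte and cholangiocyte ones, and the N-LKO Kupffer share lay below the neutrophil and lymphocyte intervals and above the cholangiocyte one. After thinning, the N-LKO Kupffer interval overlapped that of the cholangiocyte droplets, at 5.16% (3.69 to 6.98). With every droplet thinned to 1000 UMIs, the Kupffer shares were 15.8% (14.5 to 17.2) in WT and 7.34% (6.64 to 8.09) in N-LKO, and the lymphocyte shares were 9.58% (7.69 to 11.8) and 12.3% (10.4 to 14.5). The order of these 2 classes within each library was the same as in the unthinned counts. Thinning left 2707 and 5111 Kupffer droplets.

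**Figure D1:**
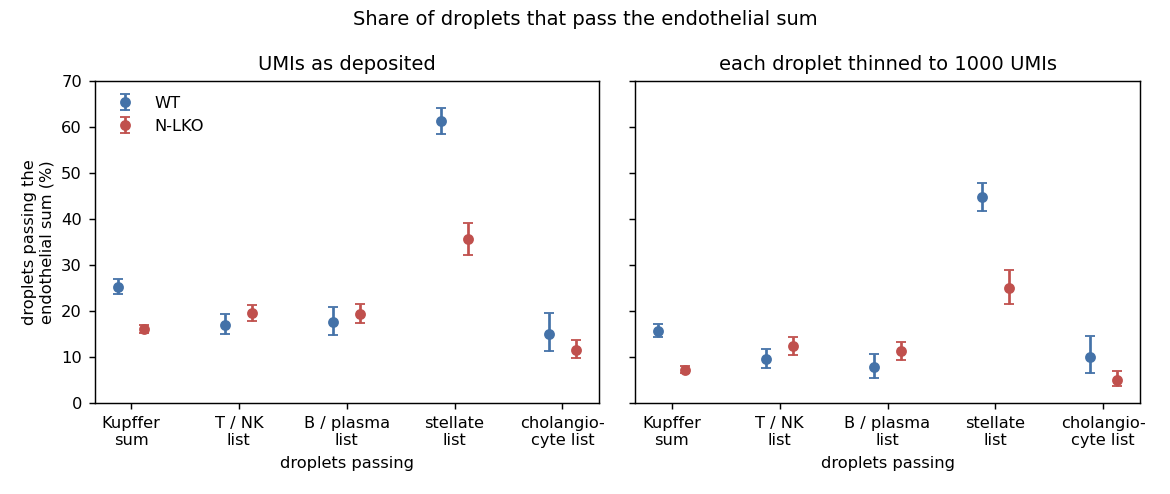
Percent of droplets that passed the endothelial sum (vertical axis) among droplets passing the Kupffer sum or holding at least 3 UMIs of a cell type list (horizontal axis), in WT (blue) and N-LKO (red), with UMIs as deposited (left) and thinned to 1000 per droplet (right). Points are shares and bars are 95% Clopper-Pearson intervals. The WT Kupffer share of 25.4% is above the lymphocyte share of 17.1%, the N-LKO share of 16.1% is below that of 19.6%, and the stellate shares are the highest shown.

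Droplets with stellate cell transcripts stood apart from the other classes. Of those with at least 3 UMIs of the 9 stellate genes (Dcn, Reln, Lrat, Colec11, Ecm1, Rgs5, Des, Col3a1 and Hand2), 61.3% passed the endothelial sum in WT (743 of 1212) and 35.6% in N-LKO (271 of 761). In the other direction, 38.5% of WT double-positive droplets (309 of 803, 35.1 to 41.9) held at least 3 stellate UMIs, against 6.05% of N-LKO ones (61 of 1008, 4.66 to 7.71). After thinning the shares were 35.1% and 4.27%. The background in WT was 3.31% in Kupffer-only droplets and 13.0% in endothelial-only droplets. In N-LKO it was 1.67% and 4.86%, and the interval of the N-LKO members overlapped that of the endothelial-only droplets (4.03 to 5.79). Stellate droplets were also more frequent in the WT library as a whole, at 6.01% of kept barcodes against 3.43%. The share in members was 6.40 times that in all kept barcodes in WT and 1.77 times in N-LKO.

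The stellate UMIs were not spread evenly over the WT members. Of the 803, 382 held none, 112 held 1 or 2, 29 held 3 to 5 and 280 held 6 or more, and the highest held 63. In N-LKO, 779 held none, 168 held 1 or 2, 17 held 3 to 5 and 44 held 6 or more. WT members thus fell into droplets with none or few and droplets with many, and few lay between. The WT members with at least 3 stellate UMIs had a median depth of 2171 UMIs, against 1685 in those with none. Their Kupffer and endothelial sums were alike, with medians of 12 and 6 UMIs against 13 and 5. T and natural killer transcripts did not share this pattern. At least 3 of their UMIs were found in 3.24% of WT members (2.13 to 4.71), against 4.81% of Kupffer-only and 6.21% of endothelial-only droplets.

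**Figure D2:**
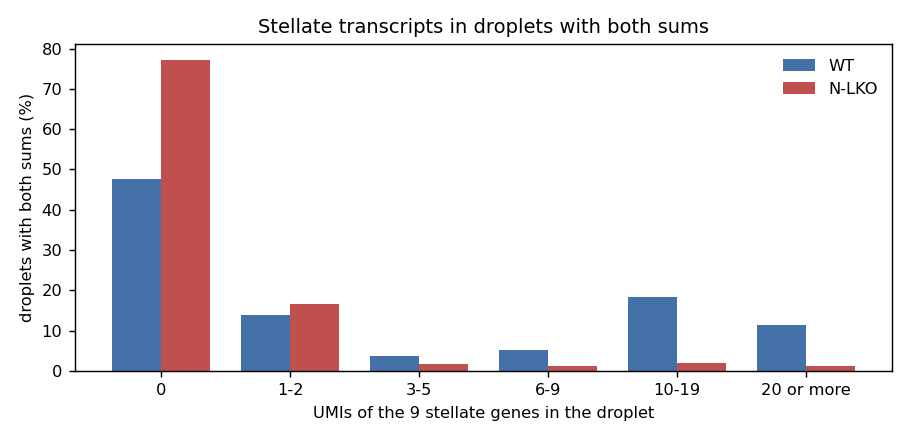
Percent of double-positive droplets (vertical axis) by the number of UMIs of the 9 stellate genes in the droplet (horizontal axis), in WT (blue, 803 droplets) and N-LKO (red, 1008 droplets). WT has a large class at 0 and a further one at 10 or more UMIs (238 droplets), with 29 droplets at 3 to 5, while N-LKO has 32 droplets at 10 or more.

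Without the stellate-bearing droplets, the libraries were closer in how often Kupffer droplets passed the endothelial sum. Among Kupffer droplets with no stellate UMI, 16.4% passed it in WT (382 of 2330, 14.9 to 18.0) and 15.3% in N-LKO (779 of 5104, 14.3 to 16.3), and these intervals overlap. The lymphocyte droplets with no stellate UMI gave 14.5% (12.4 to 16.8) in WT and 19.5% (17.6 to 21.6) in N-LKO. After thinning, the Kupffer shares without stellate UMIs were 11.2% (9.94 to 12.7) in WT and 7.13% (6.39 to 7.92) in N-LKO, which do not overlap, so the libraries still differed at equal depth. In WT the thinned Kupffer and lymphocyte intervals then overlapped, since the lymphocyte share was 8.87% (6.95 to 11.1). This split was made after the data were seen.

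The next question was whether the profile of the double-positive droplets was a sum of both cell types. In mean depth the members lay below the summed means of both single-type sets, but all sets were cut at 1000 UMIs. Single-type droplets under that cut are missing from the means, so this comparison of depth cannot decide the question. Members had a mean of 1995 UMIs in WT and 2081 in N-LKO, whereas the means of Kupffer-only and endothelial-only droplets added up to 2997 and 3263 UMIs. The members therefore held 66.6% and 63.8% of the summed depth, which was still 1.30 and 1.21 times the mean of Kupffer-only droplets. Only 64 WT members (7.97%) and 69 N-LKO members (6.85%) reached the sum. The shortfall depended on the cut, since with a minimum of 1500 UMIs members held 56.5% of the summed depth in WT and 55.5% in N-LKO. A doublet score over 0.25, computed with Scrublet, was found in 14.7% of WT members (12.3 to 17.3) and 25.7% of N-LKO members (23.0 to 28.5). In Kupffer-only droplets it was found in 7.77% and 10.9%, and in endothelial-only droplets in 10.4% and 8.30%. How the transcripts of both cells came into the same droplet was not tested.

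In composition the summed profile was within 2-fold of a weighted sum for most genes. The UMIs of all members were fitted as a mixture of the profiles of Kupffer-only droplets, endothelial-only droplets and barcodes under 500 UMIs, with the 11 rule genes left out. The Kupffer profile took 54.5% of the UMIs in WT and 64.5% in N-LKO, the endothelial profile 45.4% and 35.4%, and barcodes under 500 UMIs under 0.1% in both. The 12 hepatocyte genes summed to 12992 CPM in WT members, against 22714 in Kupffer-only and 26500 in endothelial-only droplets. In N-LKO these were 10141, 12886 and 16269 CPM. The references thus already held such transcripts, so the last weight does not measure free RNA in the members. Across genes, Pearson's r between observed and fitted log2 counts was 0.94 in WT and 0.97 in N-LKO, against 0.80 and 0.89 for Kupffer-only and 0.81 and 0.86 for endothelial-only droplets. These correlations are descriptions over 7581 and 7202 genes, which share libraries and are not independent replicates. Of these genes, 95.8% in WT and 99.5% in N-LKO lay within 2-fold of the sum or could not be told from it by counting. By counting intervals alone, 822 WT genes lay above both single-type references and 807 below both, against 295 and 388 in N-LKO. A weighted sum of the 2 references lies between them for each gene. The intervals covered the member counts only and left out the counting error of the references. They were read gene by gene, and how many genes would fall outside both references by counting error alone was not tested. The other 78.5% and 90.5% lay between the references within the counting error of the members.

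A gene was called off the sum when it differed at least 2-fold and the Poisson interval of its count left the fitted count out. In WT 202 genes were above the sum, 2.66% of those tested, and 118 (1.56%) were below. In N-LKO 12 genes (0.167%) were above and 21 (0.292%) below. The N-LKO counts became 23 and 30 when its members and references were thinned to the UMI totals of the WT library. The calls depended on depth and on the mitochondrial limit. With that limit at 10%, which left 417 WT and 223 N-LKO members, 186 genes were above the sum in WT and 275 in N-LKO, so the order of the libraries reversed. A minimum of 20 CPM then stood for 18.0 UMIs in WT and 10.7 in N-LKO, compared with 31.7 and 41.6 UMIs before.

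All 8 stellate genes tested in WT were above the sum, with a median log2 of 1.78, beside a median of 0.16 over all genes tested. Dcn, a matrix proteoglycan, had 2222 UMIs in the WT members and was 1.93 above its fitted level on the log2 scale. Lrat, the enzyme that stores retinol as esters, was 1.84 above and Reln, a secreted glycoprotein of stellate cells, 1.62 above. Rgs5, a regulator of G protein signaling found in pericytes, was 1.86 above. In N-LKO none of the 6 stellate genes tested was called, and their median was 0.77 beside 0.08 over all genes. Summed over the list, the observed level was 3.46 times the fitted one in WT (3.37 to 3.56) and 1.64 times in N-LKO (1.53 to 1.74).

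**Figure D3:**
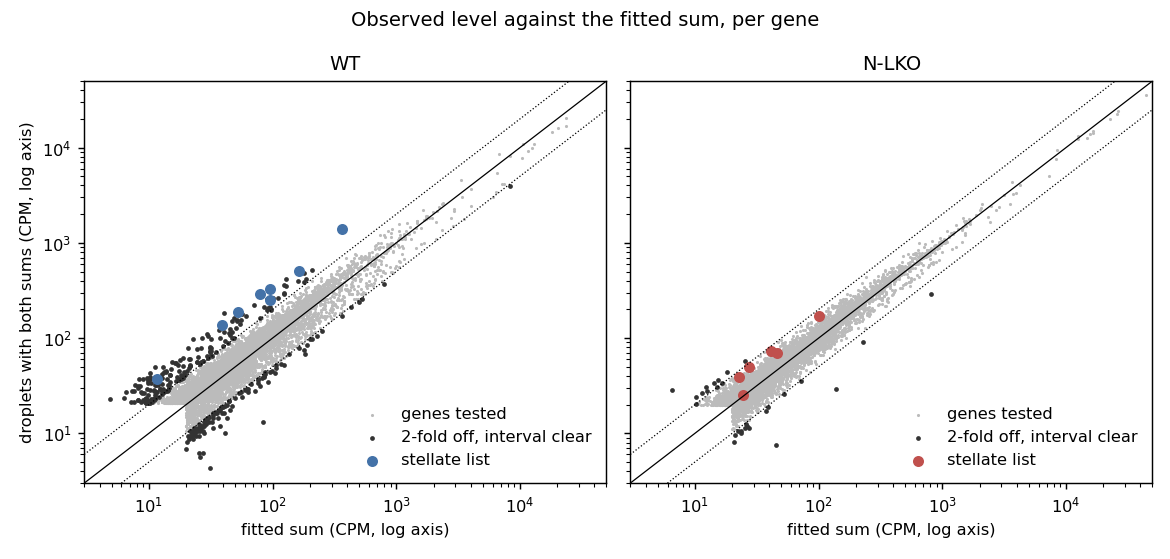
Level of each tested gene in double-positive droplets (vertical axis, CPM, log scale) against the level from the fitted sum (horizontal axis, CPM, log scale), for WT (left) and N-LKO (right). Gray points are genes tested, black points are genes called off the sum and colored points are stellate genes; the solid line is equality and the dotted lines are 2-fold. The WT stellate genes lie above the upper dotted line, with a median log2 of 1.78.

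Other genes far above the WT sum included matrix and stellate genes outside the list, named here after their values were seen. Col6a3, a collagen chain, was 2.17 above on the log2 scale from 60 UMIs. Cygb, the globin of stellate cells, was 2.15 above from 80 UMIs. Col1a2 was 2.11 above, but 26 of its 158 UMIs came from 1 droplet. Only 4 genes were above the sum in both libraries, and by the naming rule they are Sod3, Zfp804b, Bmp5 and Colec10. Sod3, the extracellular superoxide dismutase, was 2.18 above in WT and 1.35 above in N-LKO. Colec10, a collectin, was 1.49 and 1.22 above, and Bmp5, a growth factor of the BMP family, was 1.73 and 1.23 above.

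When a profile of stellate-rich droplets (at least 10 stellate UMIs, neither rule sum above 0) was added to the fit, it took 8.96% of the WT UMIs but 0.378% of the N-LKO ones. Then 66 genes were above the sum in WT and 13 in N-LKO. This profile was chosen after the data were seen and came from 68 and 44 barcodes. With members limited to those with no stellate UMI, 111 genes were above the sum in WT and 14 in N-LKO. The Kupffer weights of these members were 64.8% in WT and 65.3% in N-LKO, so the gap of the main weights, 54.5% against 64.5%, was not present among them. In the fit of all members with the stellate-rich profile added, the gap remained, at 54.5% in WT and 64.5% in N-LKO. The cause of the gap was not tested. In a fit per droplet, 282 WT members (35.1%) and 65 N-LKO members (6.45%) gave the stellate profile over 10% of their UMIs. These WT droplets held on average 42.1% Kupffer, 32.9% endothelial and 24.5% stellate weight, and the N-LKO ones 41.2%, 34.2% and 22.9%.

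Named genes below the sum were mainly those of lymphocytes, red blood cells and hepatocytes. The 4 genes below in both libraries were Igkc, Nkg7, Cyp2c23 and Stat4. Igkc, the kappa light chain of antibodies, was -1.43 in WT and -1.46 in N-LKO on the log2 scale. Of its UMIs, 58 of 109 in WT and 161 of 616 in N-LKO came from 1 droplet of the library. Nkg7, a granule protein of cytotoxic lymphocytes, was -1.56 and -1.26 from 18 and 24 UMIs. The hemoglobin genes Hba-a1 and Hbb-bs were -2.83 and -2.67 in WT, from 7 and 21 UMIs. Mup20, a urinary protein gene of hepatocytes picked after its values were seen, was the most abundant gene called below in WT, at -1.08 from 6323 UMIs. Of the 12 hepatocyte genes, Ahsg was called below in WT and none in N-LKO, but their summed level was 0.533 times the fitted one in WT (0.526 to 0.540) and 0.721 times in N-LKO (0.712 to 0.731).

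The transcripts of the 2 named cell types lay above the sum by less than 2-fold. None of the 20 Kupffer identity genes tested in WT, or of the 18 in N-LKO, was called, and the list as a whole was at 1.42 times its fitted level in WT (1.39 to 1.44) and 1.31 times in N-LKO (1.28 to 1.33). For the 24 sinusoidal endothelial genes, again with no call, it was 1.46 times (1.43 to 1.49) and 1.53 times. Cdh5, the adhesion molecule of endothelial junctions, was 0.83 and 0.66 above on the log2 scale, and Slc40a1, the iron exporter of Kupffer cells, 0.64 and 0.53 above. The rule asked for transcripts of both cells, so this direction is not independent of how the members were chosen.

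Single members covered the whole range from Kupffer to endothelial. The Kupffer share of the Kupffer and endothelial weights, fitted per droplet, had a median of 56.2% in WT with quartiles of 40.6% and 70.2%, and of 66.3% in N-LKO with quartiles of 47.5% and 81.0%. Between 25% and 75% lay 588 WT members (73.2%, 70.0 to 76.3) and 578 N-LKO members (57.3%, 54.2 to 60.4). Over 75% lay 144 WT members (17.9%) and 336 N-LKO members (33.3%). Of the reference droplets, from which the profiles were made, 5.97% to 12.0% lay between 25% and 75%. Among members with no stellate UMI the median was 65.1% in WT and 67.1% in N-LKO, and among those with at least 3 it was 42.5% and 47.3%.

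**Figure D4:**
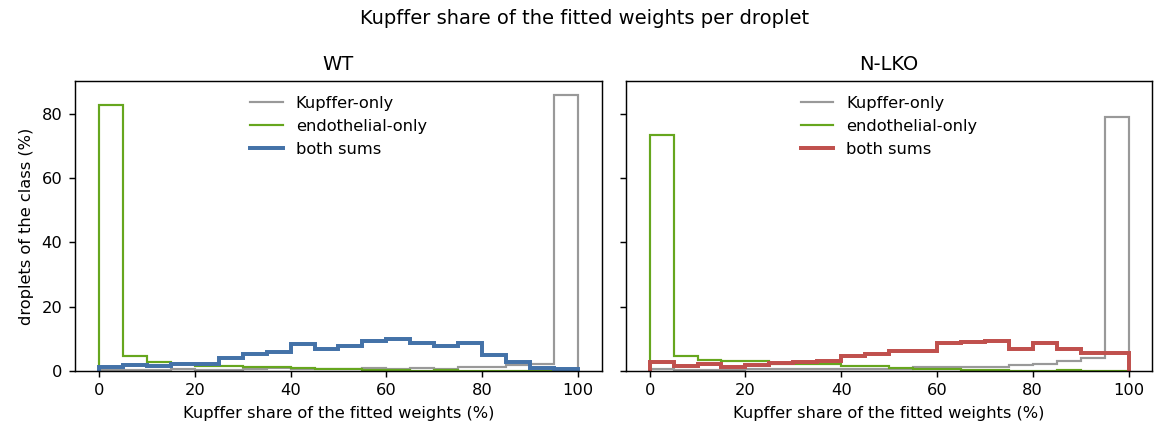
Percent of droplets (vertical axis) by the Kupffer share of the fitted Kupffer and endothelial weights (horizontal axis, percent, bins of 5), for double-positive droplets (thick line), Kupffer-only droplets (gray) and endothelial-only droplets (green), in WT (left) and N-LKO (right). The reference droplets pile up at 100% and 0%, while the double-positive droplets spread between, with medians of 56.2% and 66.3%.

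Between the libraries, 7593 genes reached 20 CPM in the double-positive droplets of at least 1 library. Of these, 246 (3.24%) were at least 2-fold higher in N-LKO with an interval that left out equality, and 432 (5.69%) were lower, with a median log2 ratio of -0.09 over all genes. Most of these differences had the same direction in the single-type droplets, but not always the same size. The ratio of the fitted sums had the same sign for 243 of the 246 higher genes and was at least 2-fold for 150. For the 431 lower genes outside the rule, these numbers were 420 and 264 (61.3%). Of the called genes, 26 of the 246 higher and 150 of the 431 lower were also called off the WT sum. Over all genes tested in WT, 2.66% were above that sum and 1.56% below. The fitted sums use other droplets of the same 2 libraries and are not independent of them.

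The stellate genes were lower in N-LKO. All 8 tested were called, with a median log2 ratio of -2.94 against -1.85 from the fitted sums. Dcn stood at 1387 CPM in WT against 171.6 in N-LKO, which is a ratio of -3.01 (-3.18 to -2.85), where the fitted sums gave -1.85. Lrat was at 189.2 and 19.1 CPM, a ratio of -3.30 (-3.82 to -2.83). Hhip, a binding protein of hedgehog ligands, had 69 UMIs in WT and none in N-LKO. It was 30.1-fold lower when the N-LKO count was set to a floor of 3 UMIs, and the interval of its log2 ratio had an upper limit of -4.58. In these pooled UMIs, fewer droplets with stellate transcripts and fewer transcripts per droplet are not separated, but the droplet counts above show that fewer droplets held them. Among members with at least 3 stellate UMIs, the median was 15 such UMIs in WT and 10 in N-LKO, both at a median depth of 2171 UMIs.

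Genes of monocyte-derived and lipid-associated macrophages were higher in N-LKO. Of 13 tested, 9 were called higher and none lower, with a median log2 ratio of 1.41, and 1.27 from the fitted sums. Gpnmb, a glycoprotein of lipid-laden macrophages, stood at 58.1 CPM in WT against 317.0 in N-LKO, a ratio of 2.44 (2.13 to 2.78). Mmp12, the macrophage elastase, was at 156.1 and 646.0 CPM, a ratio of 2.05 (1.85 to 2.25). Trem2, a lipid-sensing receptor, had a ratio of 1.95 (1.59 to 2.34), and Ccr2, the chemokine receptor of recruited monocytes, one of 1.34 (0.92 to 1.79). Lpl, the lipoprotein lipase, was at 685.5 and 1129 CPM and did not reach 2-fold, with a ratio of 0.72. Among the 8 genes with the highest ratios overall were St18, a zinc finger transcription factor, with 5 UMIs in WT and 121 in N-LKO, and Atp6v0d2, a subunit of the lysosomal proton pump, with 17 and 214 UMIs, ratios of 4.08 (2.95 to 5.86) and 3.23 (2.55 to 4.07). The fitted sums gave smaller ratios for them, 2.73 and 1.92. In members with at least 3 UMIs of Clec4f, Vsig4 and Cd5l, a limit chosen after the data were seen, the median of the list was 1.45, so it was as large without the droplets that reached the Kupffer sum through C1q genes alone.

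Of the 20 Kupffer identity genes, 4 were called lower in N-LKO and none higher, beside 5.69% lower over all genes tested, and the median was -0.39 beside -0.09. Cd163, the hemoglobin scavenger receptor, had 231 UMIs in WT and 8 in N-LKO, a ratio of -5.16 (-6.47 to -4.24) beside -5.03 from the fitted sums. Marco, a scavenger receptor, had 134 and 14 UMIs, a ratio of -3.60 (-4.56 to -2.85). Timd4, a phosphatidylserine receptor of long-lived Kupffer cells, was at 131.1 and 37.7 CPM, a ratio of -1.79 (-2.19 to -1.42). Fcna, a ficolin, had a ratio of -1.87 (-2.13 to -1.62). Adgre1, which encodes F4/80, was at 400.2 and 339.9 CPM, a ratio of -0.24.

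Of the 24 sinusoidal endothelial genes, Ehd3 and Dnase1l3 were called lower and none higher, beside 5.69% lower over all genes tested. Their median was -0.45, with -0.46 from the fitted sums and -0.33 in endothelial-only droplets, so it was not particular to the members. Ehd3, an endocytic recycling protein, stood at 693.6 CPM in WT against 178.8 in N-LKO, a ratio of -1.96 (-2.13 to -1.79). Dnase1l3, a secreted DNase, had a ratio of -1.11 (-1.29 to -0.94). Mrc1, the mannose receptor, was at 931.5 and 731.4 CPM, with a ratio of -0.35 (-0.45 to -0.25). Among 7 pericentral endothelial genes, the Wnt pathway ligands Rspo3 and Wnt2 were both lower at -1.57, and Thbd, thrombomodulin, was higher at 1.05. None of the 7 periportal genes was called. The ratio of pericentral to periportal UMIs was 2.40 in WT members (2.19 to 2.63) and 2.30 in N-LKO members (2.12 to 2.50). Members of the pericentral list went both ways, and Fabp4, a fatty acid binding protein, stood at 294.7 CPM in WT against 505.4 in N-LKO. Without Fabp4, a setting chosen after the data were seen, the ratio in members was 1.70 in WT (1.54 to 1.87) and 1.015 in N-LKO (0.920 to 1.12).

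**Figure D5:**
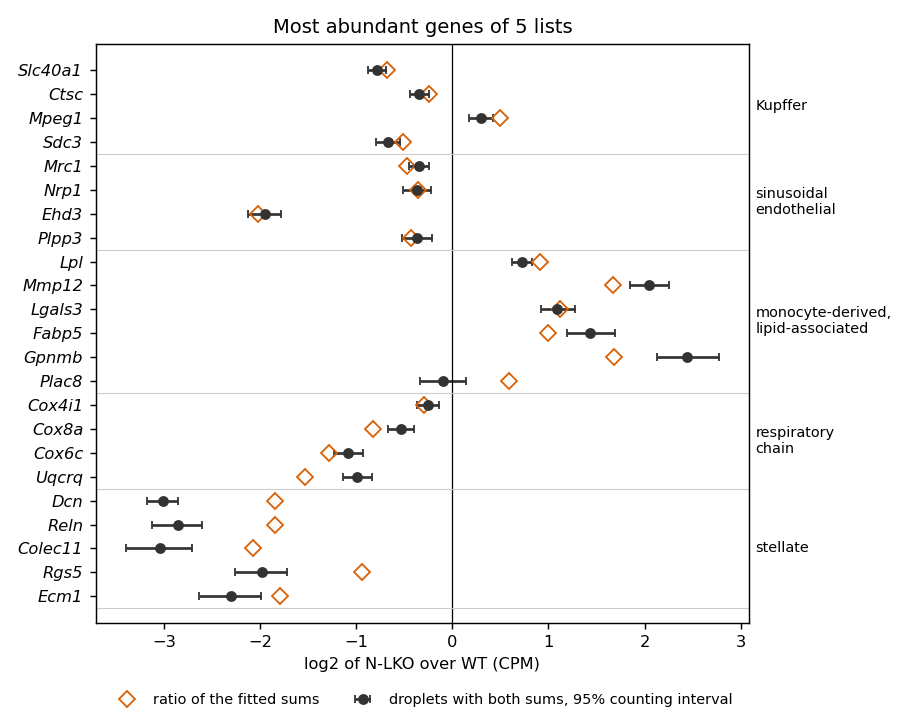
Log2 ratio of N-LKO over WT (horizontal axis) for the most abundant genes of 5 lists (vertical axis) in double-positive droplets (filled circles with 95% counting intervals) and from the fitted sums (open diamonds). Kupffer and sinusoidal endothelial genes lie near their diamonds, Gpnmb (2.44) lies above its diamond, and the stellate genes lie below theirs, with Dcn at -3.01 against -1.85.

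The remaining lists showed few calls. Of 20 respiratory chain genes, Cox6c (-1.08) and Sdhd (-1.15) were called lower, with a median of -0.74 and -0.997 from the fitted sums. None of the 7 MHC class II genes was called, and their median was 0.45. Cd74, the invariant chain, stood at 1691 CPM in WT against 2412 in N-LKO, a ratio of 0.51 (0.45 to 0.58). Of 14 scavenger receptor and lysosome genes Gpnmb alone was called, and of 12 BMP and TGF-beta genes, 6 Notch genes, 12 isolation stress genes, 4 cell cycle genes and 12 hepatocyte genes, none. Of 11 adhesion and chemokine genes, Ccl9 was higher at 2.22, and Cxcl13 and Ccl2 were lower at -1.94 and -1.85. Among 3 large vessel endothelial genes, Plvap (-1.78) and Edn1 (-1.18) were lower.

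Markers of further cell types moved with the group, and their part in the differences was not tested. Of the 3 neutrophil genes tested 2 were called higher. S100a9, a neutrophil protein, was at 19.4 CPM in WT members and 120.1 CPM in N-LKO members, and at least 3 neutrophil UMIs were found in 0.87% (0.35 to 1.79) and 3.27% (2.26 to 4.57) of them. Both erythroid genes tested were called higher, and Hbb-bs was at 13.1 and 101.6 CPM, with 67 of its 213 N-LKO UMIs in 1 droplet. Spp1, the 1 cholangiocyte gene tested, was higher at 1.95, Ebf1 was higher among 3 B and plasma cell genes at 1.04, and none of the 2 T and natural killer or 2 dendritic genes tested was called. The largest higher ratio among called genes was that of Lcn2, a siderophore-binding protein, with 1 UMI in WT and 158 in N-LKO (log2 6.33, 4.42 to 12.2). For Lcn2 the fitted sums gave 2.96. Ighm, the heavy chain of IgM, had the same direction at 3.14, but 73 of its 178 N-LKO UMIs lay in 1 droplet. Mup7, a urinary protein gene of hepatocytes, had 131 and 5 UMIs, a ratio of -4.97 (-6.75 to -3.84), close to -4.98 from the fitted sums, although reads of Mup genes can be split among near-identical copies. The median share of mitochondrial UMIs was 9.78% in WT members and 13.9% in N-LKO members.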

How the data were processed

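Livers were digested with collagenase and cells were loaded on the 10x Genomics 3′ v3 system. The authors deposited UMI counts from Cell Ranger without normalization, and the headers name version 7.1.0. The genome build named in the processing notes is mm9, and whether intron reads were counted is not given in the sources used here. The libraries held 85522287 UMIs over 100171 barcodes (WT) and 87575064 over 90147 (N-LKO), each with 32285 genes. No member barcode was shared between the libraries. Cell classes were rebuilt from the counts, so differences from the study may come from that. Doublets were kept, and Scrublet (scanpy 1.11.5, expected rate 10%) gave scores.

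The members were selected on the counts of the 11 rule genes, and the members and the 24 gene lists were chosen with earlier results of these data known. Mixture weights were fitted by maximum likelihood on summed UMIs. Ratios are log2 of CPM with 0.5 UMI added, N-LKO over WT, with exact conditional binomial intervals. Shares have Clopper-Pearson intervals and counts Poisson intervals. Genes with at least 20 CPM entered. Because each group was a single library, no test over samples was made. The named genes were the rule genes, up to 4 abundant genes per list and the most extreme called genes; others are described as chosen after their values were seen, or were called members of a list, and Adgre1 and Cdh5 were also chosen after their values were seen. The scripts were checked on simulated mixtures. There the weights were recovered, but they drifted where very abundant genes lay off the sum, so the weights were also fitted without genes at 1000 CPM or more. Alternatives changed the thresholds, filters, references, profiles and scaling. The software was scipy 1.17.1, numpy 2.4.6, pandas 2.3.3 and matplotlib 3.10.9 under Python 3.11.15.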

Additional observations from a re-analysis of the deposited data

Results flagged for a closer look

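A signal appeared in barcodes that the comparisons did not use. Of the barcodes outside the depth, gene and mitochondrial limits, 0.171% of those of N-LKO (116 of 67933, 0.141 to 0.205) passed both sums, above the 0.0787% of WT (63 of 80013, 0.0605 to 0.101). Of the N-LKO ones, 68 had over 30% mitochondrial UMIs, against 18 of the WT ones. The cause was not tested.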

How the results depend on the processing

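Of 240 alternative values 163 stayed within their counting spread (for counts of genes, within 1.5 times) and 77 moved. Of 107 gene list medians 103 stayed within their interval and 1 changed sign, that of leukocyte adhesion and chemokine genes, which was -0.22 and became 0.38 with sums of at least 8 and 6. In the sentences that follow, "depth" is the mean UMIs of members as percent of the summed means, and "weight" is the Kupffer weight in percent, WT before N-LKO. With sums of at least 8 and 6 there were 319 and 226 members, depth was 75.8 and 74.3, the WT weight 54.7, 343 genes were below the sum in WT, 190 above and 262 below in N-LKO, and 7.96% of N-LKO members held stellate transcripts. With a mitochondrial limit of 10% there were 417 and 223 members, depth was 68.3 and 60.2, weights 52.0 and 73.0, 206 genes were below in WT, 275 above (against 186 in WT) and 254 below in N-LKO, 396 genes were higher in N-LKO, the Kupffer identity median was -0.28 and the WT stellate share 44.8%. With at least 1500 UMIs depth was 56.5 and 55.5, weights 53.5 and 66.1, 277 genes were below in WT, 59 above and 50 below in N-LKO, and the WT stellate share was 45.4%. Without droplets over a Scrublet score of 0.25, depth was 67.1 and 62.9, weights 55.6 and 66.1, 179 genes were below in WT, and 36 above and 85 below in N-LKO. With droplets thinned to 1000 UMIs, 428 and 375 members remained and 4.27% of those of N-LKO in the full set held stellate transcripts. Stricter reference droplets gave weights of 53.2 and 62.9, 46 genes below in WT, and 6 above and 9 below in N-LKO. The WT weight was 54.4 with lymphocyte and stellate profiles added, weights were 54.8 and 64.4 with the rule genes kept, and 51.3 and 61.7 from genes under 1000 CPM. With no minimum beyond 1 UMI, 1146 genes were above and 357 below in WT, 646 and 208 in N-LKO, and 557 were higher and 781 lower in N-LKO. With 50 CPM as the minimum these were 88 and 44, 1 and 7, and 118 and 228.

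The following were chosen after the data were seen, as were the stellate shares under other settings and the weights from genes under 1000 CPM. Members with no stellate UMI gave weights of 64.8 and 65.3, 111 genes above in WT and 33 below in N-LKO. Members with at least 3 UMIs of Clec4f, Vsig4 and Cd5l gave weights of 56.4 and 68.2, 36 genes above and 51 below in N-LKO, and a Kupffer identity median of -0.25. The stellate-rich profile gave 66 genes above in WT. N-LKO thinned to the WT totals gave a weight of 63.9 and 23 genes above. The causes were not tested. The stellate share, recomputed under the stricter sums, the mitochondrial limit, 1500 UMIs, the Scrublet limit and thinning, was at least 35.1% in WT and at most 7.96% in N-LKO. The weights can shift where abundant genes lie off the sum, which their counting error does not cover. Depth limits calls of genes at 20 CPM, which stood for 31.7 UMIs in WT and 41.6 in N-LKO. No paired analysis was possible because each group had 1 library.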
